A study of Mus musculus with 8 samples.

Results

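The Wnt pathway genes were examined as 61 gene symbols of a table of 55276, chosen by name: every gene symbol of the Wnt, Frizzled (Fzd), secreted Frizzled-related (Sfrp), Dickkopf (Dkk) and R-spondin (Rspo) families that matched the numbering of the family, Lgr4 to Lgr6, and 17 further named receptors, regulators and transcription factors. Bulk RNA-seq was done on sorted cells of the peeled esophageal epithelium of C57BL6 mice, 14 to 15 weeks of age. Cells that excluded DAPI, and so were alive, and that carried integrin beta-1, a surface protein of basal cells, were split by their staining with Cyto-ID, a dye for autophagic vesicles, into a fraction with little dye (Cyto-ID Low) and one with much dye (Cyto-ID High). There were 4 libraries per fraction, from 2 female animals (Female1, Female2) and 2 male animals (Male1, Male2), each of which gave both fractions. No treatment or genetic change was labelled in either fraction. The series names proliferation and self-renewal of basal cells with a high vesicle content as its question, and here the fractions were compared for the genes of 1 signalling pathway.

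Wnt proteins are lipid-modified signals that bind a Frizzled receptor and, in the beta-catenin branch, a co-receptor, Lrp5 or Lrp6. Binding stops a destruction complex built on Axin and Apc from removing beta-catenin, which then acts with TCF/LEF factors in the nucleus. Other branches act on cell polarity without beta-catenin. In stratified epithelia the pathway is known for its part in the upkeep of basal cells, and R-spondins, Lgr receptors, and the ubiquitin ligases Rnf43 and Znrf3 set how many receptors stay on the surface.

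The libraries held 26285150 to 29301054 counts, and the values below are CPM, which are counts per 1e6 counts of a library, after edgeR's TMM scaling (trimmed mean of M values), where 1 count stood for 0.0275 to 0.0514 CPM. The TMM factors were 1.16 to 1.304 in Low and 0.6791 to 0.9442 in High. Scaling by total counts alone in place of TMM shifted the log2 fold changes of all genes by a median of −0.56, and changes below are relative to TMM. Of 10 basal keratinocyte markers, Krt5 and Trp63 among them, all fell in High, from a summed 22032 to 26255 CPM in the Low libraries to 2882 to 4577 in the High. Of 12 suprabasal markers 11 rose, from 10342 to 27779 CPM to 146484 to 248157, and all 10 proliferation genes fell, from 415 to 1183 CPM to 94.5 to 238. In Female1, Female2, Male1 and Male2 the Low basal sums were 22032, 23641, 26255 and 25242 CPM and the suprabasal sums 14794, 20688, 10342 and 27779. The suprabasal sum was thus the higher in Low Male2 and in all 4 High libraries. These sums are of different genes and are not per length, so their order does not give the share of either cell type. The summed 10 fibroblast markers ran from 399 to 578 CPM in Low and were 501, 170, 362 and 59.5 in High Female1, Female2, Male1 and Male2. The summed muscle markers ran from 38.7 to 62.2 CPM in Low and 5.09 to 58.8 in High, the leukocyte markers from 56.1 to 99.3 and 25.3 to 113, the melanocyte markers from 7.21 to 10.99 and 2.01 to 10.1, the endothelial markers from 27.0 to 51.5 and 21.1 to 50.5, and the Schwann cell and neuron markers from 184 to 216 and 136 to 185. Gastric markers were at 19.4 CPM in Low Female2 and 117 in High Female2 and at most 1.11 in the other libraries. A bulk level cannot tell fewer cells of a type from less RNA per cell.

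Of the 61 members 45 had enough counts to be tested. The other 16 had at most 15 counts in any library. In Cyto-ID High 5 members were higher and 18 lower than in Cyto-ID Low (quasi-likelihood test of edgeR with sex as a covariate, Benjamini-Hochberg adjusted p under 0.05 over all genes). The 23 called were 51.1% of the members tested, beside 48.7% of all 17344 genes. The 18 lower members were 40% of those tested beside 25.3% of all genes, and the 5 higher members 11.1% beside 23.4%. Of the 18, 17 fell by at least 2-fold, and of the 5, 2 rose by at least 2-fold, where 15.3% and 13.3% of all genes did. All 4 High libraries lay above all 4 Low ones for 5 members tested and below them for 17, beside 23.6% and 24.9% of all genes. The median log2 fold change was −0.71 over the members and −0.09 over all genes tested. With 1 library left out the members' median ran from −0.97 (without High Male1) to −0.39 (without Low Male2), and it was −0.47 without High Male2. With the animal as a block 6 members were higher and 20 lower, while 53.8% of all genes were called, and with scaling by total counts 2 were higher and 29 lower, while 61.7% of all genes were called. Gained under total counts were Apc, Axin1, Fzd1, Fzd3, Fzd5, Fzd8, Lrp6, Tcf7l1, Wnt10b, Wnt3 and Wnt5a, all lower. Over all genes, 48.0% of the calls were higher with TMM and 20.5% with total counts.

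The Wnt ligands changed in both directions. Wnt10a, Wnt16, Wnt3a, Wnt6 and Wnt5b fell by 12.2-fold to 20.4-fold in Cyto-ID High, while Wnt7b rose 4.82-fold and Wnt4 1.56-fold. Of 19 ligand genes 12 were tested, and the 7 called were 58.3% of these beside 48.7% of all genes. Wnt10a, a ligand of the beta-catenin branch needed for the growth of ectodermal appendages, was at 92.5, 94.8, 126 and 100.3 CPM in the Low libraries of Female1, Female2, Male1 and Male2 and at 9.96, 4.79, 7.82 and 11.5 CPM in the High libraries, in the same order of animals as all values below. No High library came near a Low one. On the log2 scale the change was −3.61 (edgeR adjusted p 1.3e-05, SE 0.24).

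Wnt16, a ligand known from lymphoid tissue and keratinocytes, was at 29.9, 23.8, 48.8 and 26.1 CPM in Low and at 1.39, 1.61, 1.56 and 3.7 CPM in High. The fractions did not overlap, and High Male2 was more than double the other High libraries. It fell by 4.00 on the log2 scale (edgeR adjusted p 1.62e-05, SE 0.31). Wnt3a, a classical activator of beta-catenin, was at 6.7, 17.4, 10.6 and 15.7 CPM in Low and at 0.81, 0.74, 0.686 and 0.875 CPM in High. Its High values were close to each other, whereas its Low values varied widely between animals. The log2 change was −4.02 (edgeR adjusted p 2.01e-05, SE 0.34).

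Wnt6 was at 5.68, 7.67, 8.14 and 5.25 CPM in Low and at 0.502, 0.305, 0.343 and 0.309 CPM in High, with a log2 fold change of −4.17 (edgeR adjusted p 1.33e-05, SE 0.29). The High values rested on 6 to 13 counts. Wnt5b, which acts mainly outside the beta-catenin branch, was at 3.52, 3.3, 4.91 and 4.65 CPM in Low and at 0.232, 0.174, 0.0763 and 0.309 CPM in High. Only 2 to 6 counts stood behind each High value. It had the largest decrease of the members tested, −4.35 on the log2 scale (edgeR adjusted p 2.2e-05, SE 0.38).

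Wnt7b, a ligand of epithelia that can act through beta-catenin, moved the other way. It was at 33.3, 42.9, 33.3 and 67.4 CPM in Low and at 165, 220, 177 and 287 CPM in High. Every High library lay above every Low one, and Male2 was highest in both fractions. Its log2 change was 2.27 (edgeR adjusted p 8.49e-05, SE 0.26). An antisense gene, AU022754, overlaps 6.61% of the exon bases of Wnt7b in the annotation, and whether the counting used strand is not given in the sources used here.

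Wnt4, known for its part in kidney and female reproductive tract development and also made by basal keratinocytes, was at 299, 454, 387 and 511 CPM in Low and at 553, 609, 573 and 849 CPM in High. The fractions did not overlap, but the highest Low and the lowest High library lay close. The log2 fold change was 0.64 (edgeR adjusted p 0.0244, SE 0.20). Without scaling the picture was different, since the raw counts were 9670, 16521, 12473 and 16915 in Low and 14321, 13984, 15021 and 16500 in High. Under scaling by total counts the change was 0.06 with an edgeR adjusted p of 0.78. The call was also lost without Low Female1 (0.50, adjusted p 0.0671), Low Male1 (0.54, 0.078), High Female2 (0.62, 0.0639) or High Male2 (0.52, 0.0705).

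Wnt5a, the best known ligand of the polarity branch, did not pass. It was at 9.73, 9.32, 8.26 and 8.995 CPM in Low and at 8.76, 7.1, 9.46 and 4.37 CPM in High, a log2 fold change of −0.29 (edgeR adjusted p 0.335, SE 0.23). With 1 library left out it ran from −0.53 (without High Male1) to −0.10 (without High Male2) and passed in none of these fits, and without High Female2 and High Male2 together it was at −0.00197. The 2 fractions overlapped, and 4.58% of its exon bases overlap a gene on the other strand. Wnt11 (8.8% overlapped), Wnt9a, Wnt10b and Wnt3 were tested on 1 to 86 counts per library and had edgeR adjusted p of 0.0642 to 0.893, and Wnt10b was called without High Female1. Wnt2b, Wnt7a, Wnt2, Wnt9b, Wnt1 and Wnt8a had at most 15 counts in any library. Of these Wnt2b was tested and called when High Male2 was left out. Wnt8b had 0 in all 8, which allows up to 3 counts, or 0.0825 to 0.154 CPM, and covers counting error only.

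**Figure D1:**
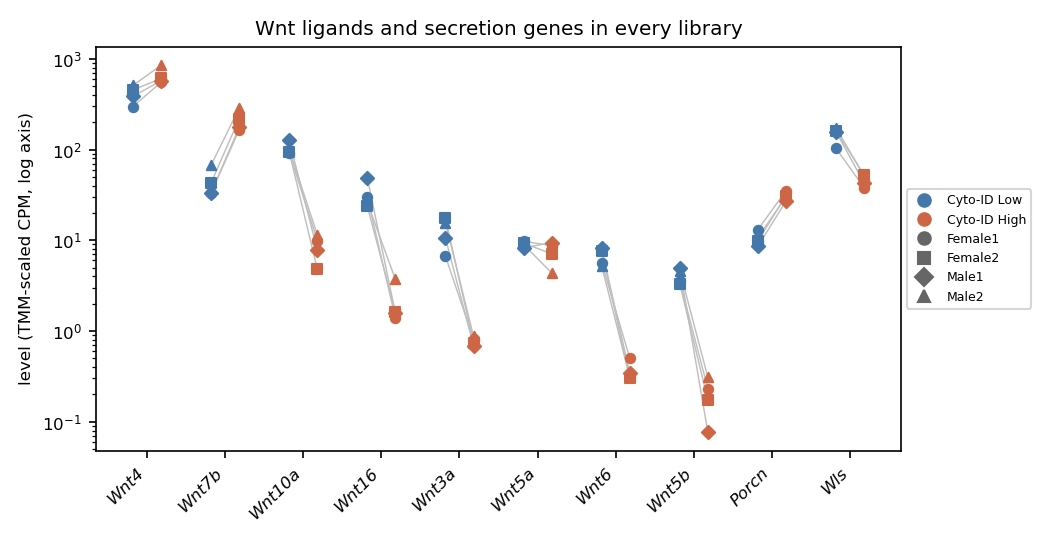
TMM-scaled CPM (log axis) of the 8 Wnt ligands with at least 5 CPM in a fraction or a call, and of Porcn and Wls, in each of the 4 Cyto-ID Low and 4 Cyto-ID High libraries, with a line joining the 2 libraries of an animal. The lines of Wnt10a, Wnt16, Wnt3a, Wnt6 and Wnt5b fall in all 4 animals, those of Wnt4, Wnt7b and Porcn rise in all 4, and those of Wnt5a are mixed.

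Levels of different ligands were compared per kilobase of annotated exon. In Cyto-ID Low the order began with Wnt4 at 98.4 ± 21.7 CPM per kilobase, Wnt10a at 41.9 ± 6.3, Wnt7b at 9.03 ± 3.28 and Wnt16 at 7.38 ± 2.61 (SD, n = 4 each). Wnt7b and Wnt16 lay within each other's spread, and Wnt3a followed at 4.57 ± 1.77. In Cyto-ID High Wnt4 led at 154 ± 33, followed by Wnt7b at 43.3 ± 11.2 and, far lower, Wnt10a at 3.45 ± 1.18 and Wnt5a at 0.949 ± 0.289. Wnt4 made up 53.4% to 62.6% of the summed ligand level in the Low libraries and 74.4% to 76.3% in the High. Wnt10a made up 20.9% to 29.6% in Low and 0.995% to 2.33% in High, and Wnt7b 3.93% to 7.07% and 19.5% to 23.0%. The summed level itself overlapped between fractions, at 131 to 195 CPM per kilobase in Low and 173 to 269 in High.

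The ratio of Wnt7b to Wnt10a does not depend on library scaling. Per kilobase it was 0.181, 0.228, 0.133 and 0.339 in Low and 8.37, 23.1, 11.4 and 12.6 in High. Wnt10a was thus the more abundant of the pair in every Low library and Wnt7b in every High library. The ratio of Wnt7b to Wnt4 was 0.0737 to 0.113 in Low and 0.256 to 0.309 in High.

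**Figure D2:**
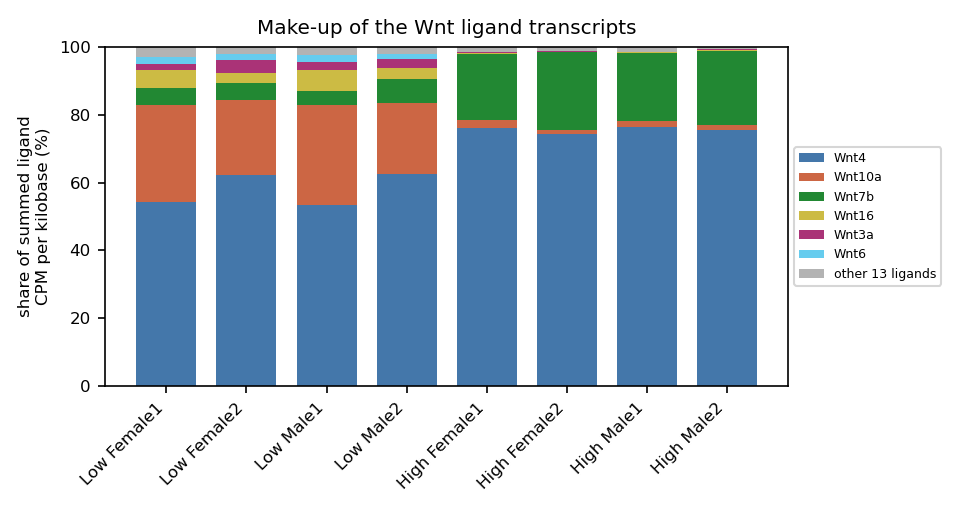
Share (%) of each Wnt ligand in the summed CPM per kilobase of all ligand genes, 1 bar per library. Wnt4 is the largest part of every bar, Wnt10a the second in the 4 Low libraries (20.9% to 29.6%) and Wnt7b the second in the 4 High libraries (19.5% to 23.0%).

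Several ligand genes are neighbours in the genome (GENCODE M21, GRCm38). Wnt6 (chr1:74771892-74785322) and Wnt10a (chr1:74791516-74804179) lie 6193 bases apart on the same strand, and both fell. Wnt3a (chr11:59248033-59290752) lies 16175 bases from Wnt9a on the opposite strand, where Wnt3a fell and Wnt9a did not pass. In the pairs Wnt10b with Wnt1 and Wnt9b with Wnt3 no gene passed or was well detected. The genes of increase, Wnt7b at chr15:85535437-85582473 and Wnt4 at chr4:137277489-137299726, are in none of these pairs. Neither are Wnt16 and Wnt5b, which fell.

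Both genes of Wnt secretion differed, in opposite directions. Porcn, the membrane enzyme that attaches the lipid to Wnt proteins, was at 13.1, 9.9, 8.6 and 10.7 CPM in Low and at 35.2, 30.9, 27.0 and 30.2 CPM in High. It rose by 1.54 on the log2 scale (edgeR adjusted p 3.58e-05, SE 0.15). Wls, the carrier that takes lipid-bearing Wnt to the cell surface, was at 103, 161, 158 and 174 CPM in Low and at 38.1, 52.5, 42.7 and 51.3 CPM in High, a log2 fold change of −1.68 (edgeR adjusted p 7.58e-05, SE 0.19). Neither gene overlapped between the fractions. Per kilobase the ratio of Porcn to Wls went from 0.159 to 0.372 in the Low libraries to 1.73 to 2.71 in the High.

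Among the Frizzled receptors, which bind Wnt at the surface, 3 of 9 tested genes fell and none rose. The 33.3% lower stand beside 25.3% of all genes. Fzd10 was at 34.7, 74.9, 44.0 and 46.0 CPM in Low and at 15.7, 28.2, 22.3 and 22.0 CPM in High, a log2 fold change of −1.17 (edgeR adjusted p 0.00394, SE 0.26). Fzd2 was at 14.9, 12.9, 16.1 and 13.8 CPM in Low and at 6.64, 4.79, 7.05 and 8.95 CPM in High, or −1.09 (edgeR adjusted p 0.000726, SE 0.18). Both were lower in High in all 4 animals without overlap. Fzd4, at 5.9, 6.02, 4.57 and 4.74 CPM in Low and 4.36, 3.7, 3.24 and 1.44 CPM in High, passed more narrowly (−0.77, edgeR adjusted p 0.0329, SE 0.26). Its call was lost in 11 of 22 alternatives, with adjusted p up to 0.157. Among them were the fits without any 1 of the 4 Low libraries (adjusted p 0.0672, 0.091, 0.102 and 0.117) and without High Female2 (0.0754).

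The other 6 tested Frizzled genes lay within 0.39 of no change on the log2 scale. Fzd7 stood at 31.9 ± 5.97 CPM in Low and 32.5 ± 6.43 in High, Fzd5 at 28.2 ± 1.77 and 27.7 ± 4.11, and Fzd3 at 9.68 ± 1.26 and 9.20 ± 1.44 (SD, n = 4 each). None of the 3 differed by more than its spread. For Fzd5 17.8% of the exon bases, and for Fzd6 3.15%, overlap a gene on the other strand. Fzd1, at 29.6 ± 2.96 and 22.6 ± 5.06 CPM, was lower in High in all 4 animals with a log2 fold change of −0.39 (edgeR adjusted p 0.108), which passed in 7 of 22 alternatives. Among them were the animal as a block (−0.41, 0.0189), at least 10 counts in every library (−0.42, 0.0478), the fit without High Female2 (−0.56, 0.0314) and that without High Female2 and High Male2 together (−0.64, 0.0256). With 1 library left out it ran from −0.565 to −0.233 (without High Female1). Fzd6, at 25.8 ± 5.35 and 32.4 ± 6.83 CPM, was higher in all 4 animals by 0.33 (edgeR adjusted p 0.215) and also passed with the block (0.0426) and without High Female1 (0.50, 0.0464), but its direction turned under total counts (−0.25). Fzd8 changed by −0.35 (edgeR adjusted p 0.182, SE 0.20), and passed as lower under total counts (−0.95, adjusted p 0.000931) and without High Female2 and High Male2 together (−0.72, 0.0142). Fzd9 was not tested, with at most 12 counts in a library. Per kilobase Fzd10 led in Low at 15.4 ± 5.3 CPM per kilobase, while in High Fzd7, Fzd10 and Fzd6 were within each other's spread at 7.17 ± 1.42, 6.78 ± 1.58 and 6.72 ± 1.42.

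The co-receptors Lrp5 and Lrp6 are close relatives that both pass the Wnt signal to the destruction complex. Lrp5 was at 186, 181, 175 and 193 CPM in Low and at 219, 235, 255 and 376 CPM in High. All High libraries lay above all Low ones, and High Male2 stood highest. The log2 fold change was 0.54 (edgeR adjusted p 0.0272, SE 0.18), which turned to −0.04 under total counts. The call was lost without Low Male1 (0.45, edgeR adjusted p 0.0594), High Female2 (0.57, 0.05) or High Male2 (0.38, 0.0639). Lrp6 was at 56.0, 59.8, 54.9 and 54.0 CPM in Low and at 39.3, 54.9, 57.3 and 50.7 CPM in High, which overlapped (−0.15, edgeR adjusted p 0.42, SE 0.14). In a ratio free of scaling, Lrp5 to Lrp6 per kilobase was 4.24 to 5.01 in Low and 6.03 to 10.4 in High.

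R-spondins, secreted proteins that keep Frizzled receptors on the surface, were hardly detected, with at most 11 counts of any of the 4 genes in any library. Their receptor Lgr4 was well expressed. It was at 74.4, 79.6, 108 and 79.2 CPM in Low and at 28.4, 38.8, 44.2 and 33.9 CPM in High. Every animal showed the decrease, and the log2 fold change was −1.23 (edgeR adjusted p 0.000221, SE 0.17). Lgr6, a marker of some epithelial stem cells, was at 1.67, 1.18, 1.62 and 0.906 CPM in Low and at 0.733, 0.218, 0.419 and 0.0514 CPM in High, which rested on 1 to 19 counts in High. It fell by 1.91 (edgeR adjusted p 0.0167, SE 0.55), a call lost without Low Female1 (−1.88, adjusted p 0.0568), Low Male1 (−1.65, 0.0687) or High Female2 (−1.69, 0.0503). Across the High libraries it followed the order of the TMM factors and of the summed fibroblast, leukocyte, T cell, muscle, melanocyte and endothelial markers. Without High Female2 and High Male2 together Lgr6 was at −1.24 (edgeR adjusted p 0.038). Lgr5, the stem cell marker of the intestine, had at most 18 counts in a library and an edgeR adjusted p of 0.41. Per kilobase Lgr4 was at 14.5 ± 2.6 CPM in Low, far above Lgr6 at 0.196 ± 0.053 and Lgr5 at 0.0449 ± 0.0130.

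The ubiquitin ligases Rnf43 and Znrf3, which take Frizzled receptors off the surface, parted between the fractions. Rnf43 was at 27.7, 37.9, 33.1 and 34.0 CPM in Low and at 8.37, 10.9, 11.02 and 14.8 CPM in High. Znrf3 was at 33.4, 28.9, 31.9 and 35.2 CPM in Low and at 40.0, 46.8, 48.7 and 61.4 CPM in High. Neither overlapped between the fractions. Rnf43 fell by 1.57 (edgeR adjusted p 8.6e-05, SE 0.18) and Znrf3 rose by 0.60 (edgeR adjusted p 0.00531, SE 0.14), although under total counts Znrf3 was at 0.02 (adjusted p 0.851). The ratio of Znrf3 to Rnf43 per kilobase was 0.633 to 1.00 in Low and 3.45 to 3.97 in High.

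**Figure D3:**
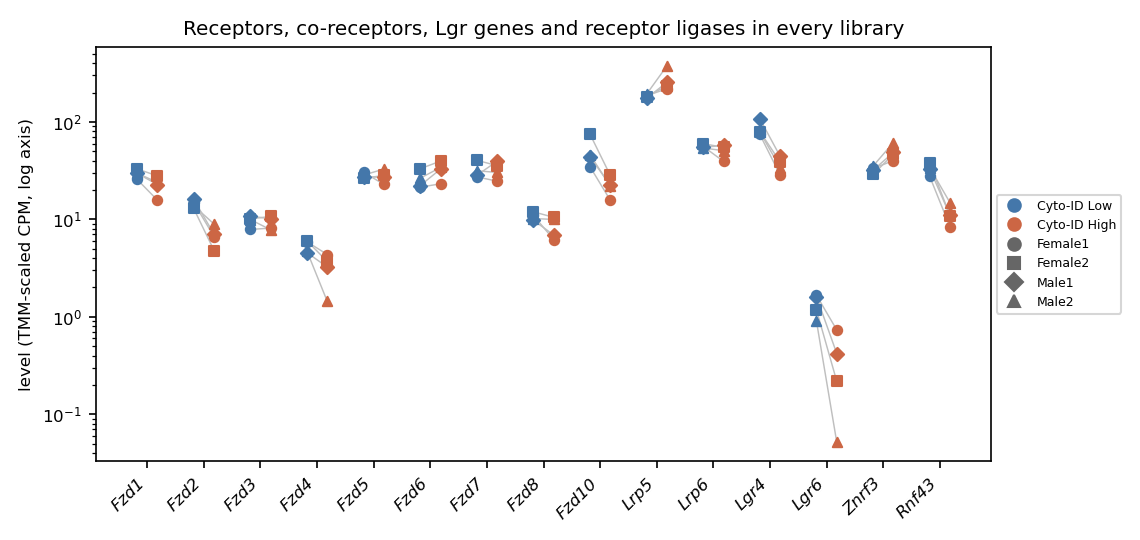
TMM-scaled CPM (log axis) of the Frizzled receptors, co-receptors, Lgr genes and receptor-removing ubiquitin ligases in each library, with a line joining the 2 libraries of an animal. Fzd10, Fzd2, Lgr4 and Rnf43 fall in all 4 animals, Lrp5 and Znrf3 rise in all 4, and the fractions overlap for Fzd3, Fzd5 and Fzd7.

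Of 10 secreted antagonists 6 were tested, of which 3 fell and none rose, or 50% lower beside 25.3% of all genes. Sfrp1, which binds Wnt outside the cell, was at 55.5, 83.4, 65.1 and 67.7 CPM in Low and at 13.2, 10.8, 13.5 and 10.5 CPM in High. The log2 fold change was −2.50 (edgeR adjusted p 1.31e-05, SE 0.17). Dkk3, a Dickkopf relative that unlike Dkk1 is not known as a clear blocker of Lrp6, was at 26.8, 42.3, 34.8 and 48.1 CPM in Low and at 9.84, 3.48, 7.21 and 2.78 CPM in High. It fell by 2.699 (edgeR adjusted p 0.000357, SE 0.39). Neither gene overlapped between the fractions. Among the described members Dkk3, Axin2 and Lgr6 shared an order of High libraries, highest in Female1, then Male1, Female2 and Male2. The summed fibroblast, leukocyte, T cell, muscle, melanocyte and endothelial markers had the same order, so it is not particular to fibroblasts. The TMM factors (0.9442, 0.896, 0.7917 and 0.6791) and the numbers of genes detected (27395, 26623, 24820 and 22208) had it too. The part of those cells or of these library traits in the 3 results was not tested. Without High Female2 and High Male2 Dkk3 was at −2.16 (edgeR adjusted p 0.00123). Without those 2 libraries 3 members were higher and 20 lower, while 44.3% of all genes were called and 45.6% of those calls were higher.

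Sfrp4 fell from a low level, 0.772, 0.412, 0.559 and 2.78 CPM in Low to 0.27, 0.0871, 0.305 and 0.514 CPM in High (−1.88, edgeR adjusted p 0.0247, SE 0.59). The fractions overlapped, and Low Male2 stood far above the rest. Without that library the change was −1.13 and did not pass (edgeR adjusted p 0.154), nor did it without Low Female1 (−1.77, 0.0703), High Female2 (−1.71, 0.068) or High Male1 (−1.68, 0.0779). Dkk2, Sfrp2 (16.1% of exon bases overlapped on the other strand) and Notum (38.1%), tested on at most 153 counts, had edgeR adjusted p of 0.263 to 0.899. Wif1, Sfrp5 and Dkk1 had at most 5 counts in a library, and Dkk4 had 0 in all 8.

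Inside the cell, Axin2 fell while Axin1 and Apc did not pass. Axin2, a brake on beta-catenin that is itself a widely used target gene of the pathway, was at 5.47, 6.41, 5.995 and 5.25 CPM in Low and at 1.08, 0.435, 0.572 and 0.154 CPM in High. Its Low values were nearly equal, and the High values, on 3 to 28 counts, were all far below them. A gene on the other strand overlaps 3.8% of its exon bases. The log2 fold change was −3.37 (edgeR adjusted p 0.000119, SE 0.41), and it kept its call in all 21 alternatives that gave it a value. Across the High libraries it too followed the order of the TMM factors and of the summed fibroblast, leukocyte, T cell, muscle, melanocyte and endothelial markers. Without High Female2 and High Male2 together Axin2 was at −2.83 (edgeR adjusted p 0.00045). Axin1, the scaffold of the destruction complex, was at 80.9, 71.3, 80.1 and 85.7 CPM in Low and at 56.1, 69.5, 57.0 and 86.6 CPM in High (−0.24, edgeR adjusted p 0.247, SE 0.16). Apc stood at 65.3 ± 6.3 CPM in Low and 56.1 ± 6.4 in High (SD, n = 4 each; −0.21, edgeR adjusted p 0.204, SE 0.13). Both passed as lower under total counts, Axin1 at −0.83 (edgeR adjusted p 0.000134) and Apc at −0.77 (0.00154), and Axin1 also passed without High Female2 and High Male2 together (−0.50, 0.0203). Nkd1 and Nkd2, which bind Dishevelled and damp the signal, were tested on at most 75 counts and did not pass (edgeR adjusted p 0.824 and 0.358).

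The TCF/LEF factors, which carry beta-catenin to DNA, moved unequally. Tcf7l2 was at 28.7, 24.4, 29.9 and 33.1 CPM in Low and at 9.15, 11.6, 9.19 and 16.4 CPM in High, a log2 fold change of −1.33 (edgeR adjusted p 0.000342, SE 0.19). Tcf7 was at 4.39, 4.62, 4.22 and 4.65 CPM in Low and at 1.58, 0.958, 1.22 and 1.03 CPM in High, or −1.89 (edgeR adjusted p 0.000154, SE 0.24). Both fell in every animal without overlap. Tcf7 is also a T cell gene. The 8 T cell markers summed to 6.49 to 11.5 CPM in Low and to 12.1, 4.48, 8.58 and 0.412 CPM in High. Their part in the Tcf7 result was not tested. In High Male2 the listed genes Cd3e, Cd3g and Cd3d were at 0, which allows up to 3 counts, or 0.154 CPM, for each. The 0.412 CPM there came from other genes of the list.

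Tcf7l1, which acts mostly as a repressor and is known from skin stem cells, was at 25.1, 31.5, 30.3 and 43.1 CPM in Low and at 15.3, 24.0, 17.0 and 44.96 CPM in High. It was lower in 3 of 4 animals, and Male2 was the exception (−0.39, edgeR adjusted p 0.308, SE 0.29). With the animal as a block it passed (−0.47, adjusted p 0.04), as it did without High Male2 (−0.75, adjusted p 0.0259) and without High Female2 and High Male2 together (−1.01, adjusted p 0.00627). Under total counts it was also called (−1.01, adjusted p 0.0051). A gene on the other strand overlaps 4.56% of its exon bases. Per kilobase it was the leading factor of the 4 in Low, at 8.29 ± 1.94 CPM per kilobase beside 3.31 ± 0.41 for Tcf7l2, and in High at 6.45 ± 3.47 beside 1.32 ± 0.39 (SD, n = 4 each). The ratio of Tcf7l1 to Tcf7l2 per kilobase was 1.96 to 2.92 in Low and 3.74 to 6.15 in High. Lef1, with 13.7% of its exon bases overlapped on the other strand, had at most 16 counts in a library and did not pass (edgeR adjusted p 0.65).

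**Figure D4:**
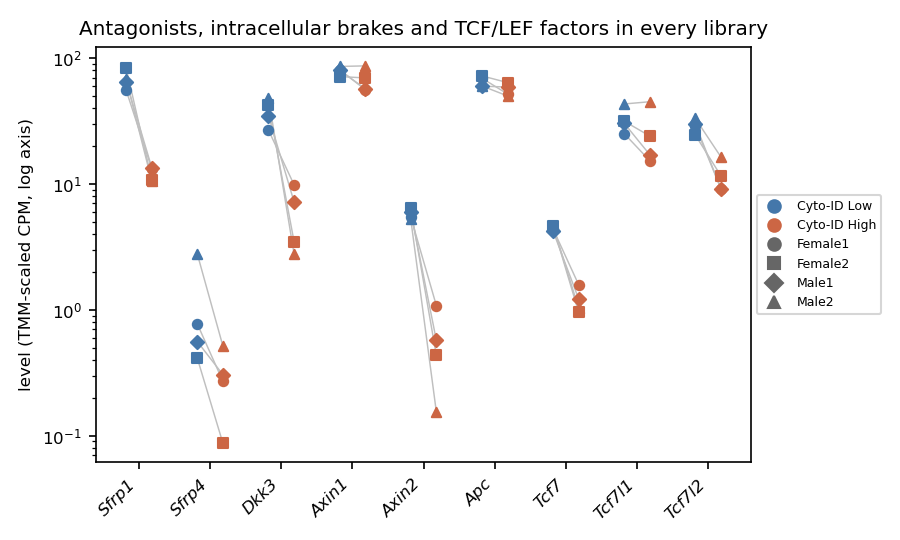
TMM-scaled CPM (log axis) of the secreted antagonists, intracellular brakes and TCF/LEF factors with at least 5 CPM in a fraction or a call, in each library, with a line joining the 2 libraries of an animal. Sfrp1, Dkk3, Axin2, Tcf7 and Tcf7l2 fall in all 4 animals without overlap, Axin1 and Apc overlap, and Tcf7l1 falls in 3 of 4.

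The TCF/LEF factors bind a short DNA site, and the promoter windows of RefSeq (GRCm38.p6, 250 bases before to 50 after a start) were searched for CTTTGA and CTTTGT, 6-letter forms of the TCF/LEF site, on both strands. A window was held for 39 of the 61 members. Neither form is contained in the other. In 11 of the 39 (28.2%) a form was present, beside 34.5% of the 27025 genes in the table. Of the 13 members that did not pass and had a window 7 held one, of the 12 not tested 2, and of the 1 that rose 0. Of the 13 members that fell and had a window 2 held one. Shown here, to let the letters be read, are the stretches before the start for those 2, Wnt5b and Tcf7l2, and for Axin2, the target gene with the largest decrease among the intracellular members, whose window held none. Capitals mark the form found. Wnt5b lies on the minus strand, and its stretch is at a start inside the annotated gene (chr6:119449387-119449636), while its other windows held no form. That of Tcf7l2 is on the plus strand, also at an internal start (chr19:55895071-55895320), and that of Axin2 on the plus strand (chr11:108920099-108920348).
Wnt5b: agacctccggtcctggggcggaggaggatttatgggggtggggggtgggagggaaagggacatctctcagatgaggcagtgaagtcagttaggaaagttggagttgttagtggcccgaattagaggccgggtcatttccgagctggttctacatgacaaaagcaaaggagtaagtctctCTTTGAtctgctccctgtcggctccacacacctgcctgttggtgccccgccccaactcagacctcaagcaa
Tcf7l2: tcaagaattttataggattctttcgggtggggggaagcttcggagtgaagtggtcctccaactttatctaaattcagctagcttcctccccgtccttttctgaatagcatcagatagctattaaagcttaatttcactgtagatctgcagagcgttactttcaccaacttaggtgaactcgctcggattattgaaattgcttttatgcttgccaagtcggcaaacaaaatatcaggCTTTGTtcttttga
Axin2: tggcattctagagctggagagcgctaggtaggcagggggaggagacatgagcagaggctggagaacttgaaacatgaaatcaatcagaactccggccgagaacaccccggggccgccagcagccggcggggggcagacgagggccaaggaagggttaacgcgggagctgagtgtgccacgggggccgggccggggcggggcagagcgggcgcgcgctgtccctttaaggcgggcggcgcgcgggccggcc
The 7-letter forms CTTTGAT and CTTTGAA, which were searched first and each contain CTTTGA, were in 3 of the 48 windows of members and in 8.65% of all 32851 windows. A match is a description of letters and not a bound site. The absence of a form in a window says only that these letters are not in it.

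Other genes of the pathway, from 6 lists, were compared in the same fit. Of 72 genes tested 16 rose and 25 fell in Cyto-ID High, or 22.2% and 34.7%, beside 23.4% and 25.3% of all genes, with a median log2 fold change of −0.17. Under total counts, where 61.7% of all genes were called and 20.5% of those calls were higher, 9 rose and 43 fell. The co-receptors and alternative receptors had 3 higher and 5 lower of 10, and a median of −1.46. Gpc3 and Gpc4, glypicans that hold Wnt at the cell surface, fell from 52.4 ± 4.2 to 3.34 ± 0.80 CPM and from 32.6 ± 2.4 to 5.74 ± 1.40 CPM (SD, n = 4 each), with log2 fold changes of −3.98 (SE 0.18) and −2.52 (SE 0.17) and an edgeR adjusted p of 1.27e-05 for each. Ptk7, a receptor of the polarity branch, fell by 1.96 (SE 0.16). Kremen2, which works with Dkk1 to remove Lrp6, rose from 2.16 ± 0.78 to 9.66 ± 3.09 CPM (2.15, edgeR adjusted p 0.000461, SE 0.33), with 9.42% of its exon bases overlapped on the other strand. Kremen1 rose by 0.61 (0.04 under total counts, where it did not pass) and Sdc1, a syndecan, by 1.07.

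In the cytoplasm 4 of 17 genes rose and 4 fell, with a median of 0.09, beside 23.4% higher and 25.3% lower of all genes. Without High Female2 and High Male2 together 5 were called in place of 8. Ctnnb1, which encodes beta-catenin, stood at 540 ± 55 CPM in Low and 620 ± 132 in High (SD, n = 4 each) and did not pass (0.19, edgeR adjusted p 0.416, SE 0.18), turning to −0.39 under total counts (adjusted p 0.0244), and 15.1% of its exon bases overlap other genes. Csnk1a1, Ctnnd1 and Dvl3 rose by 0.60, 0.58 and 0.55. Under total counts they were at 0.03, 0.01 and −0.03 and did not pass. Dvl3 also lost its call without High Female2 and High Male2 together (0.31, adjusted p 0.0712), and Ctnnd1 lost its call without High Female2 (0.47, adjusted p 0.109) or High Male2 (0.57, 0.0654). Another gene covers 61.2% of the exon bases of Ctnnd1 on the same strand, so its counts are uncertain. Csnk1e, Amer1 and Btrc, kinase, scaffold and ubiquitin ligase partners around the destruction complex, fell by 1.26, 1.13 and 0.97.

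Of 12 nuclear partners of beta-catenin 1 rose and 4 fell, beside 23.4% and 25.3% of all genes, and under total counts all 12 were called, beside 61.7% of all genes. The gene that rose was Ctnnbip1, which encodes an inhibitor that keeps beta-catenin from TCF factors. It went from 19.8 ± 6.8 to 146 ± 28 CPM (SD, n = 4 each), an increase on the log2 scale by 2.89 (edgeR adjusted p 2.58e-05, SE 0.26), and 25.8% of its exon bases overlap Gm13066 on the other strand. The corepressors Tle2 and Tle1 fell by 1.73 and 0.66, and the coactivator Bcl9 by 1.01.

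Of 15 planar polarity genes 5 rose and 6 fell, beside 23.4% and 25.3% of all genes. Daam1 and Daam2, formins downstream of Dishevelled, rose by 1.73 (SE 0.17) and 1.47 (SE 0.23), and the polarity scaffold Scrib by 1.36 (SE 0.17). Celsr1, a core polarity cadherin, fell from 262 ± 21 to 99.0 ± 18.7 CPM (SD, n = 4 each; −1.42, edgeR adjusted p 9.68e-05, SE 0.17). Invs fell by 1.24 and Vangl1 by 0.62, the latter a call lost without High Male1 (−0.57, adjusted p 0.0559). Among other secreted modulators 1 of 6 tested genes rose and 2 fell. Dkkl1, a relative of Dkk3, rose from 4.36 ± 3.36 to 75.2 ± 18.3 CPM (4.11, edgeR adjusted p 0.000172, SE 0.53). Without Low Male2 its log2 fold change was 4.88. Apcdd1, a membrane inhibitor of Wnt, fell by 1.06 (SE 0.20).

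Of 12 reported target genes tested 2 rose and 4 fell, with a median of −0.11, beside 23.4% higher and 25.3% lower and a median of −0.09 over all genes. A call of 6 in 12 is near the 48.7% of all genes. Ccnd1, which encodes cyclin D1 and is also driven by other growth signals, fell from 163 ± 36 to 52.3 ± 8.0 CPM (SD, n = 4 each; −1.63, edgeR adjusted p 9.53e-05, SE 0.19), where 23.4% of its exon bases overlap a gene on the other strand. Myc stood at 364 ± 53 CPM in Low and 364 ± 86 in High (0.01, edgeR adjusted p 0.976, SE 0.18), and at −0.58 under total counts (adjusted p 0.00381). Tnfrsf19 fell by 1.66 and the receptor gene Ephb2 by 1.60. Its relative Ephb3 rose by 1.60 (edgeR adjusted p 0.000137, SE 0.20), and the Notch ligand gene Jag1 by 0.79 (0.23 under total counts, where it did not pass).

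**Figure D5:**
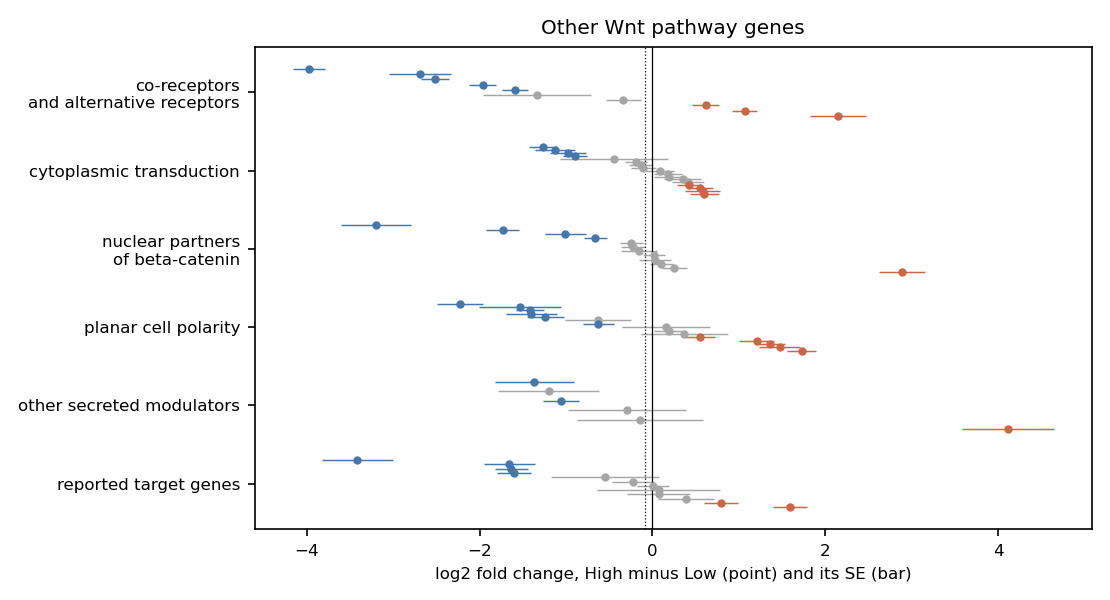
Log2 fold change of Cyto-ID High minus Low (point) with its SE (bar) for the tested genes of 6 lists of other Wnt pathway genes, orange where higher, blue where lower and grey where the adjusted p was 0.05 or more, with the median of all genes as a dotted line at −0.09. The points at the far right are Dkkl1 (4.11) and Ctnnbip1 (2.89), and the lowest is Gpc3 (−3.98).

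The difference between the fractions was also tested for dependence on sex. In the fit with an interaction of sex and fraction 0 of the 45 members passed (edgeR's quasi-likelihood test), 0 had an unadjusted p under 0.05, and with the animal as a block both counts were again 0. Of all 17344 genes 0 passed (0%) and 19 (0.11%) had an unadjusted p under 0.05, in a comparison of 2 animals with 2. With no interaction at all a share of about 0.05 would be expected, so the test was very conservative here. The 0 members therefore do not show that the sexes are alike.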

How the data were processed

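RNA-seq of 8 libraries was analysed, 4 per Cyto-ID fraction, grouped by the label of the fraction. The authors deposited a matrix of unnormalised counts by gene symbol, and its whole numbers with unequal totals show the unit. STAR 2.7.3, DESeq2 and GRCm38 are named without a role in the submitters' processing notes; the counting tool, annotation and strandedness are not given in the sources used here.

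Counts were fitted in R 4.3.3 with edgeR 4.0.16: filterByExpr (17344 genes), TMM, glmQLFit, then glmQLFTest (two-sided) in a model of sex and fraction, Benjamini-Hochberg over all genes, threshold 0.05. Each SE is the log2 fold change over the root of F. Exon lengths and overlaps are from GENCODE M21. The least different pair of libraries within a fraction had a chi-square of 17.7 per degree of freedom, so no library was a copy. The titles pair the libraries by animal. The deviations from the fraction means correlated at 0.43, 0.32, −0.02 and 0.28 across genes in Female1, Female2, Male1 and Male2. For High Female1, Female2 and Male2 this was the highest value with any Low library. High Male1 correlated most with Low Female1, at 0.35, so the pairing rests on the names.

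A member was described if called or at 5 CPM or more in a fraction. From each other list the 3 largest changes per direction were named, with 5 CPM or more over all libraries and 1 sign in 4 animals, plus Ctnnb1, Myc and Ccnd1. Members and lists were chosen with earlier results of these data known. Alternatives used RLE, total counts, other filters, robust dispersion, DESeq2 1.42.0, limma-voom (3.58.1), a fit without sex, a replicate block for the animal, and left-out libraries or animals. Leaving out High Female2 and High Male2 together was chosen after seeing the data.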

Additional observations from a re-analysis of the deposited data

Results flagged for a closer look

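In 68 groups of 4 libraries, the members described in each fraction, the farthest library was compared with the rest by Dixon's criterion. It picks about 1 in 20 groups by chance, and here it picked 3. Wnt16 was at 3.70 CPM in High Male2, where the other High libraries had 1.39 to 1.61. Lgr4 was at 108 CPM in Low Male1, where the others had 74.4 to 79.6. Sfrp4 was at 2.78 CPM in Low Male2, where the others had 0.412 to 0.772. Fzd3 moved in opposite directions in the sexes, with log2 CPM differences of High minus Low of 0.05 and 0.08 in the females and −0.09 and −0.35 in the males; its interaction of sex and fraction did not pass (edgeR p 0.489, adjusted p 1).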

How the results depend on the processing

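Of the 23 called members 17 kept direction and call in every one of the 22 alternatives that gave them a value, and Wnt4, Fzd4, Lrp5, Lgr6, Znrf3 and Sfrp4 did not. The 16 members not tested had too few counts for the filter. With at least 10 counts in every library 30 members were tested, and Axin2, Lgr6, Sfrp4, Wnt5b and Wnt6 gave no value.

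With the animal as a replicate block 26 members were called, among them all 23, with Fzd1 (adjusted p 0.0189), Fzd6 (0.0426) and Tcf7l1 (0.04) added, and it changed no other member's call. Myc was then at −0.0152.

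Under scaling by total counts the members called were 2 higher and 29 lower with a median of −1.22, and the other pathway genes 9 and 43 with a median of −0.75. Fzd6 (−0.25), Fzd7 (−0.53), Lrp5 (−0.0354), Dvl3 (−0.0293), Ctnnb1 (−0.39) and Myc (−0.58) changed sign. When each library was left out in turn, the number of higher members ran from 3 (without Low Male1, High Female2 or High Male2) to 6. The log2 fold changes that turned sign then ran from −0.19 to 0.0276 for Fzd3, −0.11 to 0.0630 for Fzd5, −0.0873 to 0.20 for Fzd7 and −0.14 to 0.16 for Myc. Without a call in any of these fits, Fzd8 ran from −0.495 to −0.194, Lrp6 from −0.225 to −0.0320, Axin1 from −0.379 to −0.133 and Apc from −0.272 to −0.135. Without the animal Male2 the median of the members was −0.36, with Fzd3 at 0.0680 and Myc at −0.0571. Without Female1 Fzd5 was at 0.0528 and Myc at −0.0569, without Female2 Myc was at −0.0242, and without Male1 Fzd7 was at −0.13. Without High Female2 and High Male2 together 3 members were higher, and Fzd7 (−0.0158), Ctnnb1 (−0.0642) and Myc (−0.24) changed sign. Fzd5 was at 0.0401 with RLE and 0.0398 with DESeq2, Fzd7 at −0.0144 without a filter, and Myc at −0.0329 without a filter, −0.0187 with at least 10 counts and −0.0122 with limma-voom. Apart from what a setting removes by construction, the cause was not tested. Of the 11 tested members not described singly, 6 changed sign somewhere and 2 passed somewhere.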
